A study of Arabidopsis thaliana with 6 samples.

Results

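The plastid genome of Arabidopsis thaliana encodes the core subunits of the photosynthetic complexes, and the transcripts of these genes are described here in seedlings of 2 genotypes. The members were taken by gene name, a rule that uses no measured value, as every plastid row of the count tables whose gene is a psa, psb, pet, atp or ndh gene or rbcL. This gave 45 of the 32744 genes in the tables, or 44 when ndhB, which lies in both copies of the inverted repeat, is counted once. They comprise 15 genes of photosystem II, 5 of photosystem I, 6 of the cytochrome b6f complex, 6 of the ATP synthase, 12 rows of the NADH dehydrogenase-like (NDH) complex and rbcL.

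RNA sequencing after ribosomal RNA depletion was done on 3 libraries labelled as a knockout double mutant of AT4G15640 and AT3G21465 and on 3 wild-type libraries. All came from whole seedlings at Boyes stage 1.04, grown on an unspecified medium with no treatment, and the series title places both targeted genes among uncharacterised mitochondrial proteins. Neither the alleles nor the ecotype of the plants is named in the labels. The design text speaks of 2 biological replicates while the titles number 3 libraries per genotype, and nothing says that the libraries came from separate plants. The p-values therefore reflect the spread among these 6 libraries, which may be technical. Total counts ranged from 62235559 to 78671470 in the double mutant libraries and from 53193772 to 77446157 in wild type. The targeted gene AT3G21465 averaged 4.61 ± 0.255 CPM (a gene's counts scaled to a library total of 1000000) in the double mutant libraries and 7.92 ± 0.4997 CPM in wild type (SD, n = 3 each; log2 fold change -0.78 ± 0.08 SE, adjusted p = 8.95e-05 by edgeR). AT4G15640 averaged 13.4 ± 0.725 CPM in the libraries labelled double mutant and 11.95 ± 1.07 CPM in wild type (SD, n = 3 each; adjusted p = 0.121 by edgeR), so its level does not show a loss of its transcript, and "double mutant" below stands for that label.

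Photosystem II, the cytochrome b6f complex and photosystem I form the chain in the thylakoid membrane that carries electrons from water to ferredoxin, and the ATP synthase uses the proton gradient that this chain builds. The NDH complex returns electrons from ferredoxin to plastoquinone and so takes part in cyclic electron flow around photosystem I. Each complex is a mosaic of plastid-encoded and nucleus-encoded subunits, and most plastid genes are read as clusters whose long transcripts are then cut, trimmed, spliced and edited with the help of nucleus-encoded RNA-binding proteins.

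Transcripts of these complexes took up a smaller part of the RNA in the double mutant. The 45 genes held 45.9%, 40.7% and 42.5% of all counts in the 3 double mutant libraries, against 51.4%, 51.1% and 53.5% in the wild-type libraries. All 3 double mutant libraries lay below all 3 wild-type libraries. In bulk tissue, fewer green cells or fewer plastids and less plastid RNA per cell cannot be told apart. The share of the whole plastid genome was 46.3% ± 2.55 in the double mutant and 55.9% ± 1.17 in wild type (SD, n = 3 each; exact two-sided permutation p = 0.1, the smallest that 3 against 3 libraries can give). Within the plastid counts the members' part did not move beyond the spread, at 93.0% ± 0.534 in the double mutant and 93.0% ± 0.605 in wild type (SD, n = 3 each).

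Of the 45 members, 40 were lower in the double mutant at an adjusted p under 0.05 and none was higher, beside 26.0% of the 21805 tested genes lower and 26.3% higher (edgeR quasi-likelihood test with Benjamini-Hochberg adjustment over all tested genes). Counting ndhB once, 39 of 44 were lower. The called log2 fold changes were moderate, between -0.89 for ndhF and -0.23 for ndhD, and none reached a halving. The median over all 45 members was -0.51, against 0.01 over all tested genes and -0.57 over the 41 other plastid protein-coding genes, of which 36 were lower. The 5 members that did not pass the test were psaA, psaB and psaI of photosystem I and psbM and psbN of photosystem II. In the same 40 members every double mutant library lay below every wild-type library, an arrangement found in 29.8% of all tested genes; the opposite one, found in 32.1%, held for no member. With each library scaled instead to its own plastid counts, a scale on which the median of all tested genes moves up by 0.64, 13 of these 40 genes were higher in the double mutant and 1, ndhF, was lower. Directions below are therefore on the CPM scale unless the plastid scale is named.

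**Figure D1:**
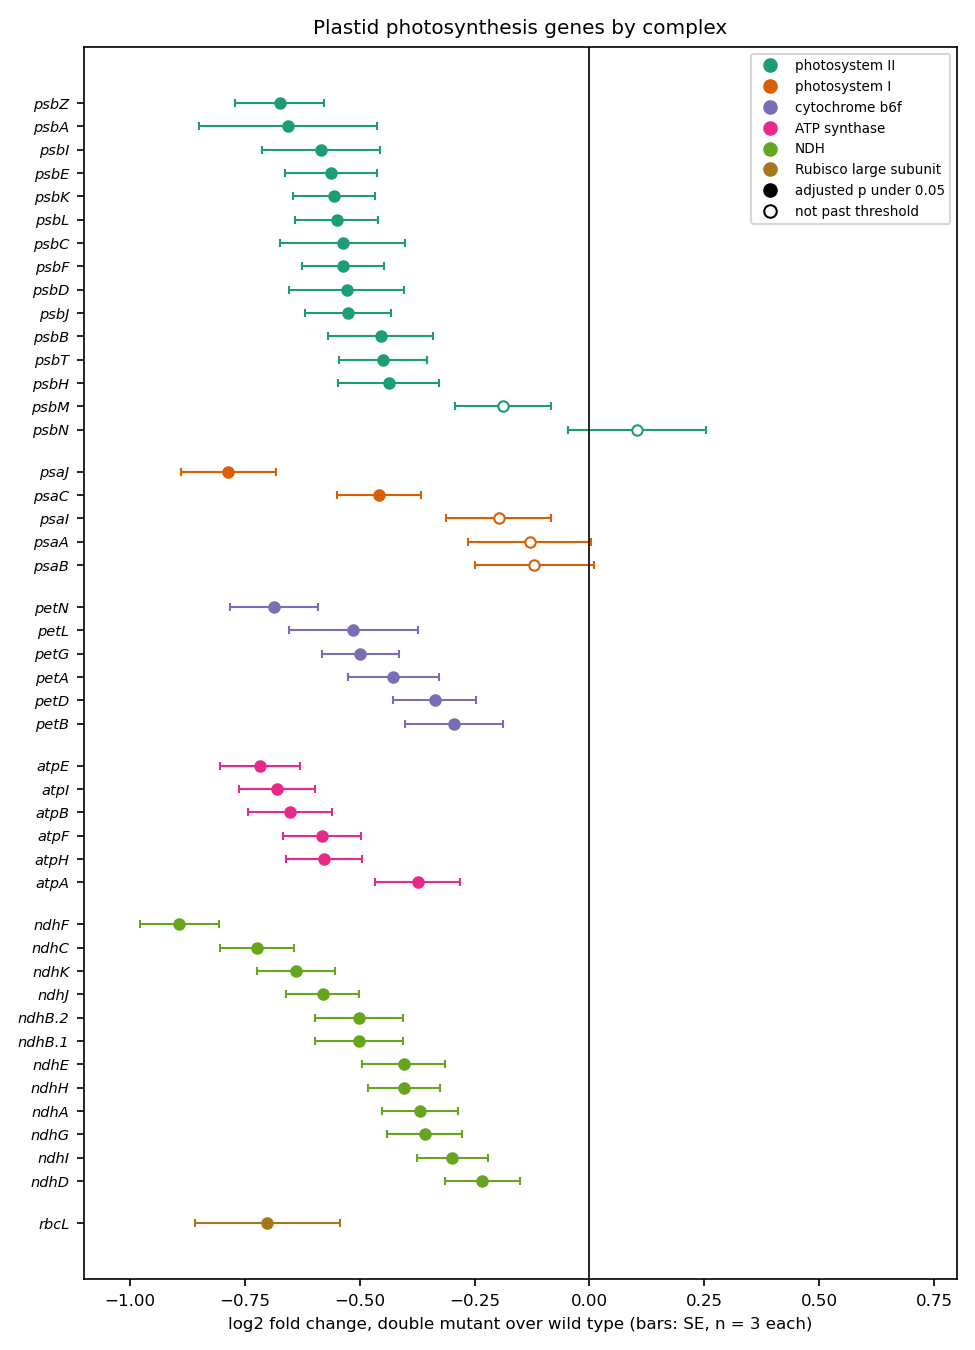
Log2 fold change of each of the 45 genes, double mutant over wild type on the CPM scale, with the standard error as a bar (3 libraries per group), ordered by size within each complex; filled points had an adjusted p under 0.05 and open points did not. The 40 filled points lie between -0.89 and -0.23, and the open ones are psbM, psbN, psaI, psaA and psaB; scaled to plastid counts, 18 of the 45 genes were higher and 1 was lower.

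The first double mutant library had the highest level of the 3 in all 45 members, whereas the highest wild-type library was the first for 16 members, the second for 18 and the third for 11. Leaving out that double mutant library again gave 40 members lower. The plastid share of counts was 49.0% in it, against 44.1% and 45.7% in the other double mutant libraries. Its part in the results was not tested beyond these values.

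Some tissue markers also differed between the groups. Of 21 root markers 10 were lower and 6 higher (edgeR adjusted p under 0.05), with a median log2 fold change of -0.44. Over all tested genes 26.0% were lower and 26.3% higher, so the number of higher root markers is near the share over all genes. The lower root markers include the endodermal Casparian strip genes CASP1 (-2.09 ± 0.24), CASP2 (-2.14 ± 0.33) and CASP4 (-2.57 ± 0.37, all SE). CASP5 had no count in 2 of the 3 double mutant libraries. The higher ones were the root-tip regulators WOX5 (1.42 ± 0.24), PLT2 (1.15 ± 0.18) and PLT1 (1.02 ± 0.24), the root hair regulator RHD6 (0.87 ± 0.16) and the endodermis regulators MYB36 (0.76 ± 0.21) and SHR (0.34 ± 0.11; all SE). The summed level of the root list was 678.0, 650.4 and 652.3 CPM in the double mutant, against 1402, 945.7 and 998.3 CPM in wild type. Most of that sum is the beta-glucosidase gene BGLU23, with 519 ± 28.3 CPM in the double mutant and 953 ± 217 CPM in wild type (SD, n = 3 each). Without it, an alternative added after seeing the data, the other 20 markers summed to 126, 145 and 152 CPM in the double mutant, against 199.5, 133 and 155 CPM in wild type, and the groups overlapped. Seed storage markers were nearly absent in both groups, with summed levels between 0.0988 and 2.72 CPM in the double mutant and between 0.482 and 4.63 CPM in wild type. The nuclear genes RBCS1A, CAB1 and CAB3, which mark green tissue, summed to 6511, 5984 and 7043 CPM in the double mutant and 9341, 10761 and 8649 CPM in wild type. Most of that difference is RBCS1A, with a log2 fold change of -1.20 ± 0.11 (SE; adjusted p = 5.06e-05 by edgeR), while CAB1 was at -0.20 ± 0.11 (0.176) and CAB3 at 0.17 ± 0.15 (0.370), neither past the threshold. The part of tissue composition in the members' changes was not tested. Mitochondrial transcripts took 4.42% ± 0.202 of counts in the double mutant and 1.65% ± 0.0770 in wild type (SD, n = 3 each), and every plastid share is a share of a total that includes them.

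Summed over genes, photosystem I transcripts had the smallest drop, and the sum of photosystem II is mostly psbA. Photosystem II genes summed to 220710 ± 34311 CPM in the double mutant and 341838 ± 23793 CPM in wild type, a log2 ratio of -0.63 (SD, n = 3 each). Without psbA its other 14 genes summed to 36784 ± 3114 CPM in the double mutant and 52010 ± 3631 CPM in wild type, a ratio of -0.50, a sum added after seeing the data. ATP synthase genes summed to 15008 ± 833 CPM in the double mutant and 21963 ± 620 CPM in wild type, a ratio of -0.55. With single libraries left out the ratio ran from -0.76 to -0.54 for photosystem II and from -0.60 to -0.52 for the ATP synthase, and the median over single genes was -0.54 for photosystem II and -0.62 for the ATP synthase, so the order of these complexes is not settled. NDH genes summed to 10158 ± 609 CPM in the double mutant and 13944 ± 638 CPM in wild type, a ratio of -0.46. In these 3 complexes the groups did not overlap, and ndhB enters the NDH sum at both of its copies. Cytochrome b6f genes summed to 9573 ± 942 CPM in the double mutant and 12256 ± 107 CPM in wild type, a ratio of -0.36, again without overlap. Photosystem I genes summed to 48850, 39493 and 40593 CPM in the double mutant, against 44792, 48653 and 49951 CPM in wild type, a ratio of -0.15. Here the first double mutant library lay among the wild-type ones, so the groups overlapped. These sums are descriptions of the chosen genes and were not tested.

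**Figure D2:**
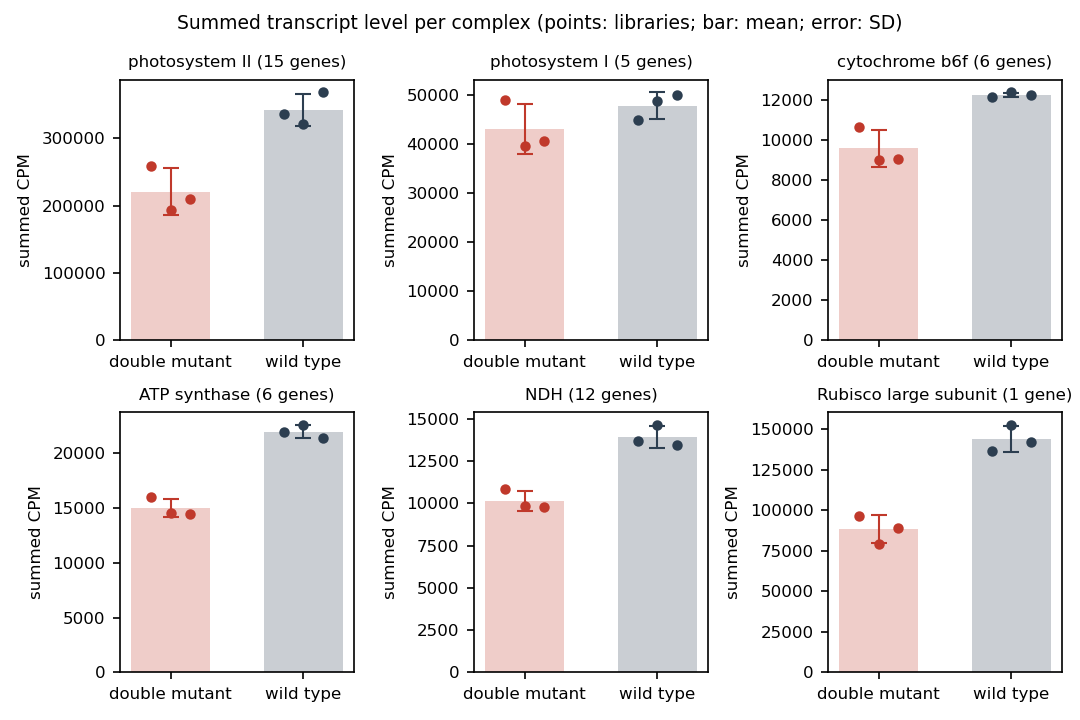
Summed level of the genes of each complex in CPM, with 1 point per library, the bar at the mean and the error bar at the SD of 3 libraries. Double mutant libraries lie below all wild-type libraries in every panel except photosystem I, where 1 double mutant library reaches 48850 CPM.

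Photosystem II takes electrons from water. Its reaction centre protein D1 is encoded by psbA (ATCG00020, Pt:383-1444, minus strand), the most abundant member in every library. psbA stood at 218705, 158244 and 174827 CPM in the double mutant, against 285990, 271686 and 311808 CPM in wild type. The groups did not overlap, but the double mutant libraries differed widely among themselves, and the log2 fold change of -0.66 ± 0.19 (SE) had an edgeR adjusted p of 0.0200. That call was lost when double mutant replicate 2 (adjusted p = 0.106) or 3 (0.0906) was left out, and also without wild type replicate 1 (0.0728) or 3 (0.0626), over a range of 1.78e-07 to 0.106 in all alternatives. By exon length, 47.6% of psbA has a near-identical copy in the mitochondrial genome and 46.9% in the nuclear genome, and a read that fits several places was counted at each.

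Transcripts for the other large core proteins of photosystem II fell together on the CPM scale. psbD, which encodes the reaction centre protein D2, stood at 7235, 5910 and 5695 CPM in the double mutant, against 8505, 8770 and 9898 CPM in wild type, a log2 fold change of -0.53 ± 0.13 (SE; adjusted p = 0.00717 by edgeR). psbC, for the inner antenna protein CP43, stood at 11597, 10933 and 11534 CPM in the double mutant, against 14974, 14873 and 19582 CPM in wild type. Neither pair of groups overlapped, and the third wild-type library was the highest for both genes. The log2 fold change of psbC was -0.54 ± 0.14 (SE; adjusted p = 0.00963 by edgeR). psbB, for the other inner antenna protein CP47, stood at 11582, 9721 and 9576 CPM in the double mutant, against 13905, 14231 and 14178 CPM in wild type. psbB changed by -0.45 ± 0.11 on the CPM scale (SE; adjusted p = 0.00956 by edgeR) and 0.17 ± 0.06 on the plastid scale (adjusted p = 0.0279). The CPM call of psbB was lost when double mutant replicate 2 (adjusted p = 0.0514) or 3 (0.0585) was left out, the range over alternatives being 1.25e-06 to 0.0585. psbD and psbC are read from the same strand, and the last bases of psbD are the first of psbC. The junction is shown because a read that touches both genes was assigned to neither, which lowers both counts; capitals mark the shared bases, on TAIR10 coordinates Pt:33708-33784, plus strand, from the RefSeq TAIR10.1 plastid sequence.
psbD-psbC: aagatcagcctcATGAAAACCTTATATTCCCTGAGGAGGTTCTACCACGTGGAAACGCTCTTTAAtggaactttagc

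Transcripts for most small subunits of photosystem II fell by similar amounts on the CPM scale. The genes psbE and psbF, for the subunits of cytochrome b559, and psbL and psbJ, which are read with them, had log2 fold changes between -0.56 and -0.53, so the 4 genes of this unit lay within 0.04 of each other. psbK and psbI, another pair read together, were at -0.56 and -0.58, and psbZ at -0.67. psbH and psbT, which lie in the psbB unit, were at -0.44 and -0.45 on the CPM scale, while on the plastid scale psbH was at 0.19 (edgeR adjusted p = 0.0442, not past the threshold in 8 of the 11 alternatives) and psbT at 0.17 (0.0538).

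Among the 15 photosystem II genes psbM and psbN did not pass the test on the CPM scale. psbM, a small subunit at the contact between the monomers of the complex, stood at 384, 355 and 350 CPM in the double mutant, against 481, 369 and 390 CPM in wild type. The first double mutant library lay between the wild-type values, and the log2 fold change was -0.19 ± 0.10 (SE; 95% interval -0.43 to 0.05; adjusted p = 0.163 by edgeR). psbN, whose product assists assembly of the photosystem II reaction centre, stood at 742, 518 and 589 CPM in the double mutant, against 546, 501 and 674 CPM in wild type. The groups were interleaved, and the log2 fold change was 0.10 ± 0.15 (SE; 95% interval -0.24 to 0.45; adjusted p = 0.591 by edgeR). It was the single member with a value above 0, and without double mutant replicate 1 it was -0.064 (adjusted p = 0.722; range over alternatives 0.239 to 0.951). psbN lies between psbT and psbH but on the opposite strand, 65 bases from psbT and 104 bases from psbH, so its strand-specific counts are separate from those of the surrounding unit only as far as the library protocol keeps strand. Both coding sequences are short and are shown because they mark the photosystem II genes that did not pass the test; start and stop codons are in capitals, and both are on the minus strand, psbM at Pt:28707-28811 and psbN at Pt:74249-74380 (RefSeq TAIR10.1).
psbM: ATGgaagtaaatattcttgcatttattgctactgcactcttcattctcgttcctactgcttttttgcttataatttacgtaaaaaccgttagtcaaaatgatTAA
psbN: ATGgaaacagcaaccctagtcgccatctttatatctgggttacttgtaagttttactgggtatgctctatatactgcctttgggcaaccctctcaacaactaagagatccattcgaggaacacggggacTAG

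Photosystem I passes electrons to ferredoxin, and its plastid genes split into those that fell and those that did not pass the test. psaA and psaB encode the large proteins that together hold the reaction centre pigments. psaA (ATCG00350, Pt:39605-41857, minus strand) stood at 22792, 18037 and 18621 CPM in the double mutant, against 20017, 22316 and 22737 CPM in wild type. psaB (ATCG00340, Pt:37375-39579, minus strand) stood at 23144, 18996 and 19492 CPM in the double mutant, against 20670, 22689 and 23595 CPM in wild type. In both genes the first double mutant library exceeded at least 2 wild-type libraries while the other 2 lay below all of them. The log2 fold changes were -0.13 ± 0.13 for psaA (SE; 95% interval -0.44 to 0.17; adjusted p = 0.442 by edgeR) and -0.12 ± 0.13 for psaB (95% interval -0.41 to 0.17; adjusted p = 0.463). Without that library they were -0.25 and -0.22 and still did not pass. psaB begins 25 bases after psaA ends, and the spacer is shown because the pair had nearly equal fold changes; capitals mark the end of psaA and the start of psaB (Pt:39562-39622, minus strand, RefSeq TAIR10.1).
psaA-psaB: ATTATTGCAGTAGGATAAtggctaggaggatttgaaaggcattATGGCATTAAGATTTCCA

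Among the other photosystem I genes psaC and psaJ fell, while psaI did not pass the test. psaI, for a small membrane subunit, stood at 703, 607 and 581 CPM in the double mutant, against 833, 651 and 684 CPM in wild type. The groups overlapped, and the log2 fold change was -0.20 ± 0.11 (SE; 95% interval -0.46 to 0.06; adjusted p = 0.176 by edgeR). psaJ, which lies near the docking site for plastocyanin, stood at 1078, 905 and 906 CPM in the double mutant, against 1825, 1544 and 1612 CPM in wild type. All double mutant libraries were well below the wild-type ones, and its log2 fold change of -0.79 ± 0.10 (SE; adjusted p = 0.000296 by edgeR) was the lowest after that of ndhF among the 45 members. psaC, for the subunit with the terminal iron-sulphur clusters, stood at 1133, 949 and 993 CPM in the double mutant, against 1448, 1453 and 1321 CPM in wild type. It fell on the CPM scale (-0.46 ± 0.09 SE; adjusted p = 0.00310 by edgeR) and was at 0.17 on the plastid scale (adjusted p = 0.0436, not past the threshold in 8 of the 11 alternatives). The coding sequences of psaI (Pt:59247-59360) and psaJ (Pt:66929-67063), both on the plus strand, are shown because they are the short photosystem I genes at the upper and the lower end of the fold changes; start and stop codons are in capitals (RefSeq TAIR10.1).
psaI: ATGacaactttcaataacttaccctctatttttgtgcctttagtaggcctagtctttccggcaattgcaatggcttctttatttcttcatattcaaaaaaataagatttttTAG
psaJ: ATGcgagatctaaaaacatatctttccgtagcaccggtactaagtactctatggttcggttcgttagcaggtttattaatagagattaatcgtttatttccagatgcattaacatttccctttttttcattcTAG

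**Figure D3:**
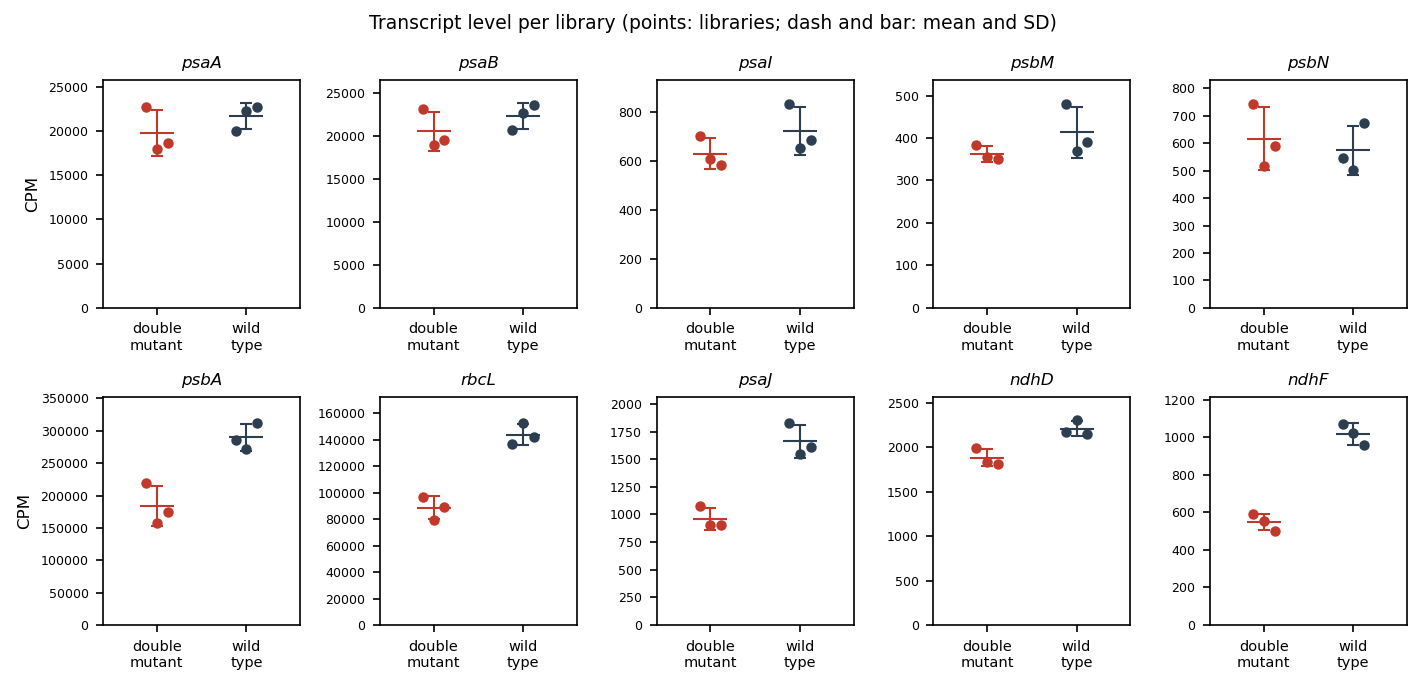
Level in CPM of 10 genes in each library, with points for libraries and dashes and bars for the mean and SD of 3; the upper row holds the 5 genes that did not pass the test and the lower row 5 that did. The groups overlap in psaA, psaB, psaI, psbM and psbN and are separate in psbA, rbcL, psaJ, ndhD and ndhF, where the double mutant is lower; scaled to plastid counts, ndhD and all 5 genes of the upper row were higher.

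The cytochrome b6f complex links the photosystems, and all 6 of its plastid genes fell on the CPM scale. petN, for a small subunit needed for assembly of the complex, fell most, to 494, 435 and 401 CPM in the double mutant, against 769, 686 and 685 CPM in wild type (log2 fold change -0.69 ± 0.10 SE; adjusted p = 0.000393 by edgeR). The small subunit genes petL and petG, read together, were at -0.51 ± 0.14 and -0.50 ± 0.08 (SE), with petL no longer past the threshold without double mutant replicate 3 (adjusted p = 0.0548; range over alternatives 0.000550 to 0.0548). petA, for cytochrome f, was at -0.43 ± 0.10 on the CPM scale (SE; adjusted p = 0.00632 by edgeR) and at 0.20 on the plastid scale (0.0185). petB, for cytochrome b6, stood at 5103, 4197 and 4244 CPM in the double mutant, against 5378, 5619 and 5618 CPM in wild type. The first double mutant library came close to the lowest wild-type one without reaching it. The log2 fold change of petB was -0.29 ± 0.11 (SE; adjusted p = 0.0435 by edgeR), and the call ended when any library other than double mutant replicate 1 was left out, with adjusted p over all alternatives of 0.00277 to 0.169. petD, for subunit IV, was at -0.34 ± 0.09 (SE; adjusted p = 0.0133 by edgeR), and its call ended without double mutant replicate 2 (0.0644) or 3 (0.0726; range 4.45e-05 to 0.0726). On the plastid scale petB was higher by 0.33 ± 0.07 and petD by 0.29 ± 0.06 (SE; edgeR adjusted p = 0.000790 and 0.00174).

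The ATP synthase is a rotary machine with a membrane part and a catalytic part, and all 6 of its plastid genes fell on the CPM scale. atpB and atpE, for the catalytic beta subunit and the epsilon subunit, were at -0.65 ± 0.09 and -0.72 ± 0.09 (SE). In the other unit atpI, atpH, atpF and atpA follow each other. atpI, for membrane subunit a, stood at 1277, 1158 and 1136 CPM in the double mutant, against 1943, 1964 and 1814 CPM in wild type, a log2 fold change of -0.68 ± 0.08 (SE; adjusted p = 0.000199 by edgeR). All exon bases of atpI also have a near-identical copy in the nuclear genome, and reads fitting both were counted at both. atpH, for the ring subunit c, and atpF, for subunit b, were both at -0.58 ± 0.08 (SE). atpA, the last gene of the unit and the one for the alpha subunit, stood at 5305, 4856 and 4798 CPM in the double mutant, against 6311, 6706 and 6365 CPM in wild type. Its groups did not overlap, and its log2 fold change of -0.37 ± 0.09 (SE; adjusted p = 0.00914 by edgeR) was the nearest to 0 in this complex; on the plastid scale atpA was higher by 0.25 ± 0.06 (adjusted p = 0.00183). Without double mutant replicate 3 the CPM call of atpA ended (adjusted p = 0.0563; range over alternatives 4.19e-07 to 0.0563). atpB and atpE share 4 bases, in capitals in the junction (Pt:52645-52678, minus strand, RefSeq TAIR10.1), shown because the stop of one gene overlaps the start of the next.
atpB-atpE: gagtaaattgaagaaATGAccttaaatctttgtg

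All 12 NDH rows fell on the CPM scale, over the widest range of any complex in which every gene passed. At the low end stood ndhF, a membrane subunit at the distal end of the proton-pumping arm (ATCG01010, Pt:110398-112638, minus strand). ndhF stood at 589, 552 and 502 CPM in the double mutant, against 1069, 1024 and 956 CPM in wild type. The groups were far apart relative to their spread, with a log2 fold change of -0.89 ± 0.09 (SE; adjusted p = 5.38e-05 by edgeR). It was also the member that was lower on the plastid scale, at -0.27 ± 0.07 (SE; adjusted p = 0.00583 by edgeR). At the other end stood ndhD, another membrane subunit (ATCG01050, Pt:115665-117185, minus strand), with 1989, 1837 and 1811 CPM in the double mutant, against 2171, 2302 and 2151 CPM in wild type. The log2 fold change was -0.23 ± 0.08 on the CPM scale (SE; adjusted p = 0.0400 by edgeR) and 0.39 ± 0.06 on the plastid scale (adjusted p = 0.000110). The CPM call of ndhD ended when any library other than double mutant replicate 1 was left out (adjusted p over alternatives 0.00179 to 0.160), while no alternative ended its plastid-scale call.

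The other NDH genes are given by the unit they are read in. ndhC, ndhK and ndhJ, for a membrane subunit and parts of the arm that faces the stroma, were at -0.72, -0.64 and -0.58. ndhC stood at 415, 375 and 353 CPM in the double mutant, against 647, 603 and 638 CPM in wild type, without overlap (adjusted p = 0.000117 by edgeR). The ndhH unit holds ndhH, ndhA, ndhI, ndhG, ndhE, psaC and ndhD in that order, and its NDH genes lay between -0.40 and -0.23 on the CPM scale and between 0.22 and 0.39 on the plastid scale. In the membrane arm ndhA was at -0.37, ndhG at -0.36 and ndhE at -0.40 on the CPM scale, and ndhH of the stromal arm at -0.40. ndhI, for a subunit of the stromal arm with iron-sulphur clusters, stood at 526, 472 and 482 CPM in the double mutant, against 603, 641 and 576 CPM in wild type (log2 fold change -0.30 ± 0.08 SE; adjusted p = 0.0108 by edgeR). With double mutant replicate 3 left out its CPM call was lost (adjusted p = 0.0538; range over alternatives 0.000267 to 0.0538). ndhB, for a large membrane subunit, had a log2 fold change of -0.50 ± 0.10 at both copies (SE; adjusted p = 0.00239 by edgeR), and because the copies are identical their counts are the same reads and not a repeat measurement.

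rbcL encodes the large subunit of Rubisco, the enzyme that fixes carbon dioxide in the stroma, and was second in abundance to psbA. It stood at 96664, 79369 and 89246 CPM in the double mutant, against 136524, 152664 and 142062 CPM in wild type. The groups did not overlap, and the log2 fold change was -0.70 ± 0.16 (SE; adjusted p = 0.00561 by edgeR). As a share of all counts rbcL took 10.03%, 9.37% and 10.2% in the double mutant, against 12.4%, 13.6% and 12.5% in wild type. On the plastid scale it was at -0.07 ± 0.06 (SE; adjusted p = 0.295 by edgeR). Near-identical copies cover 39.8% of rbcL in the mitochondrial genome and 42.8% in the nuclear genome.

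Members assigned to the same unit differed by 0.31 at most on the log2 scale. As units were assigned here, 34 of the 45 members lie in 10 transcription units with at least 2 members. psaI and petA, which lie in a row with accD, ycf4 and cemA on the plus strand, were counted outside these units. So was psaJ (-0.79), which lies after petL (-0.51) and petG (-0.50) on the plus strand. A petL-petG unit with psaJ in it would have a wider range. ndhB (-0.50), which lies after rps7 (-0.28) on the same strand, was also counted outside. The range from lowest to highest was 0.01 in psaA-psaB, 0.02 in petL-petG, 0.03 in psbK-psbI, 0.04 in psbE-psbF-psbL-psbJ and 0.07 in atpB-atpE. It was wider in ndhC-ndhK-ndhJ (0.14), psbD-psbC-psbZ (0.15), psbB-psbT-psbH-petB-petD (0.16), the ndhH unit (0.22) and atpI-atpH-atpF-atpA (0.31). Some neighbours outside the members had similar values. rps14, which follows psaB, and ycf3, which lies upstream of psaA and assists photosystem I assembly, were at -0.17 ± 0.10 and -0.09 ± 0.09 (SE; edgeR adjusted p = 0.201 and 0.436). Around psaI, accD for a subunit of acetyl-CoA carboxylase was at -0.21 ± 0.08 (SE; adjusted p = 0.0581 by edgeR) and ycf4, for a photosystem I assembly factor, at -0.32 ± 0.09 (0.0151). Next on that strand, cemA was at -0.38 ± 0.09 (SE, adjusted p = 0.00719 by edgeR) and the member petA at -0.43 ± 0.10 (0.00632). Beside psaJ, the ribosomal protein genes rpl33 and rps18 were at -0.91 ± 0.06 and -0.80 ± 0.07 (SE; edgeR adjusted p = 8.83e-06 and 2.78e-05). Other neighbours had unlike values, such as petN (-0.69) beside psbM (-0.19), psbN (0.10) between psbT (-0.45) and psbH (-0.44), and rps4 (-0.18) beside ndhJ (-0.58). Of these, petN and psbM lie on opposite strands, as do psbN and its neighbours, while rps4 and ndhJ are both on the minus strand. These neighbours were chosen for their position after the values were seen, and closeness along the genome was not tested.

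**Figure D4:**
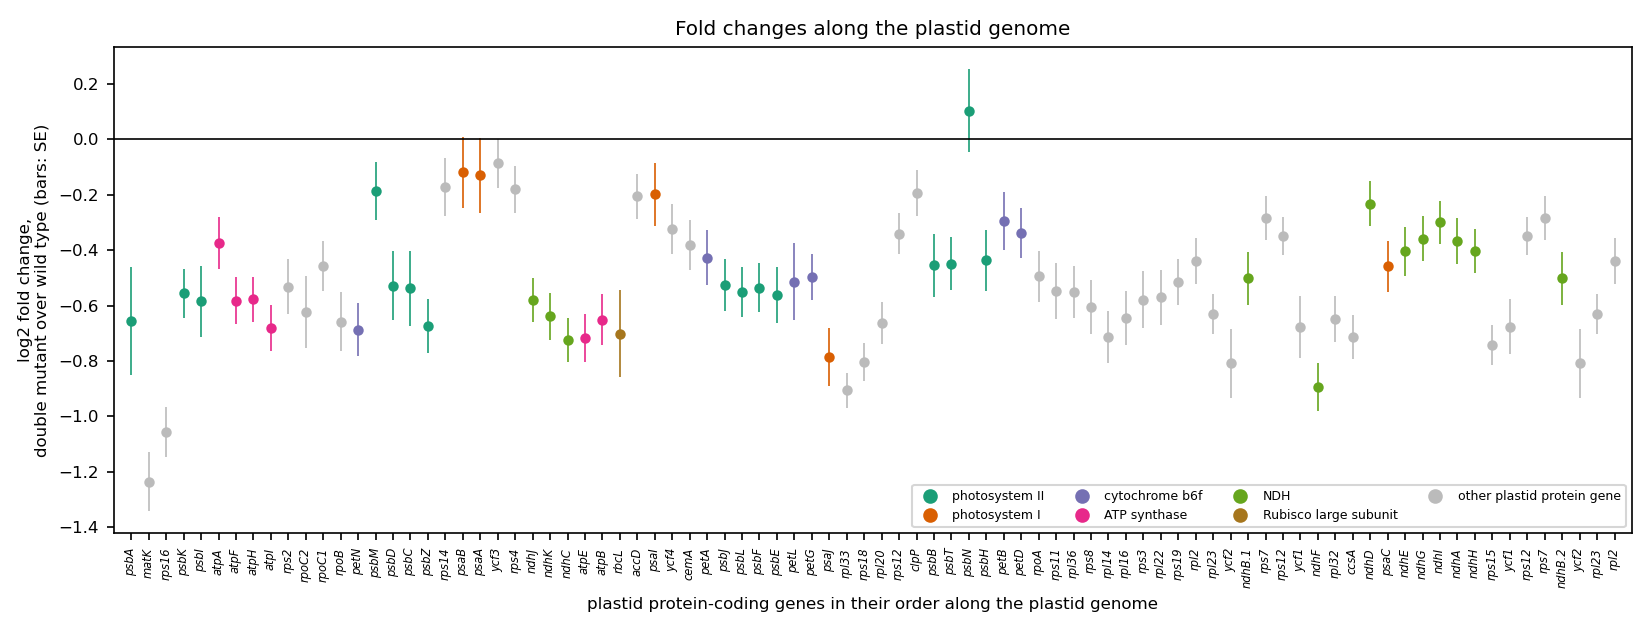
Log2 fold change on the CPM scale (double mutant over wild type, bar: SE, 3 libraries per group) of every plastid protein-coding gene in its order along the plastid genome, with the 45 members in colour by complex and other genes in grey. Some neighbours have similar values, as from rps14 to ycf3 (-0.17 to -0.09). Others differ, as petN (-0.69) beside psbM (-0.19) or psbN (0.10) between psbT and psbH, in both cases on opposite strands. Scaled to plastid counts all genes shift up by about the same amount, so that those nearest to 0 here are higher.

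The plastid scale asks which members moved more or less than the bulk of the plastid genome, by scaling each library to its plastid counts. On it 18 of the 45 members were higher, 1 was lower and 26 did not pass (edgeR adjusted p under 0.05). Over all tested genes 73.4% were higher and 6.56% lower, a consequence of the scale, so the plastid genes outside the members are the nearer comparison. Of those 86 genes 16.3% were higher and 40.7% lower; all 14 higher ones were among the 41 other protein-coding genes, of which 3 were lower. The most raised members were psbN (0.72 ± 0.13; adjusted p = 0.000367), psaB (0.50 ± 0.07; 5.86e-05), psaA (0.49 ± 0.07; 0.000101), psbM (0.44 ± 0.10; 0.00267) and psaI (0.42 ± 0.10; 0.00281; all edgeR, SE). These are the 5 genes that did not pass on the CPM scale, where their values lay between -0.20 and 0.10. Counted by complex, the plastid scale placed 4 of 5 photosystem I genes higher, 4 of 15 of photosystem II, 3 of 6 of cytochrome b6f, 1 of 6 of the ATP synthase and 6 of 12 NDH rows. Under all 11 alternatives 10 members kept a higher call, namely atpA, psbM, psaB, psaA, psaI, psbN, petB, petD, ndhD and ndhI, and ndhF kept its lower one. With unadjusted plastid totals, or with the scaling computed on plastid protein-coding genes alone, the number higher was 10, and in the second case 7 members were lower. Leaving out wild type replicate 2 gave 2 lower members. Leaving out 1 library ended the plastid-scale call of psbB (double mutant replicate 1, adjusted p = 0.0969, or wild type replicate 2, 0.0609), petA and ndhE (wild type replicate 3, 0.0607 and 0.0570), psbH (any library but double mutant replicate 2, up to 0.136) and psaC (double mutant replicate 1 or 3 or wild type replicate 2 or 3, up to 0.128). Over all alternatives the adjusted p of these 5 genes lay between 0.00818 and 0.490.

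Ratios of counts within a library need no scaling between libraries. The ratio of psaA to psbA was 0.104, 0.114 and 0.107 in the double mutant, against 0.0700, 0.0821 and 0.0729 in wild type. Photosystem I genes together took 11.1%, 11.4% and 10.9% of the members' counts in the double mutant, against 7.93%, 8.50% and 8.23% in wild type. In both measures all double mutant libraries exceeded all wild-type libraries. The ratio of psaI to psaJ was 0.655 ± 0.0147 in the double mutant and 0.434 ± 0.0192 in wild type (SD, n = 3 each). The ratio of atpA to atpI, from opposite ends of 1 unit, was 4.15, 4.19 and 4.22 in the double mutant, against 3.25, 3.41 and 3.51 in wild type. ndhD and ndhF, which lie near each other on the same strand, had a ratio of 3.44 ± 0.149 in the double mutant and 2.18 ± 0.126 in wild type (SD, n = 3 each). psbN to psbT, from opposite strands, had a ratio of 0.615 ± 0.0663 in the double mutant and 0.421 ± 0.0712 in wild type. By contrast psaB to psaA (1.04 ± 0.0202 in the double mutant and 1.03 ± 0.0110 in wild type) and rbcL to psbA (0.485 ± 0.0372 in the double mutant and 0.498 ± 0.0562 in wild type) overlapped between the groups. The pairs were chosen after their values were seen, so these ratios are given without a test.

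**Figure D5:**
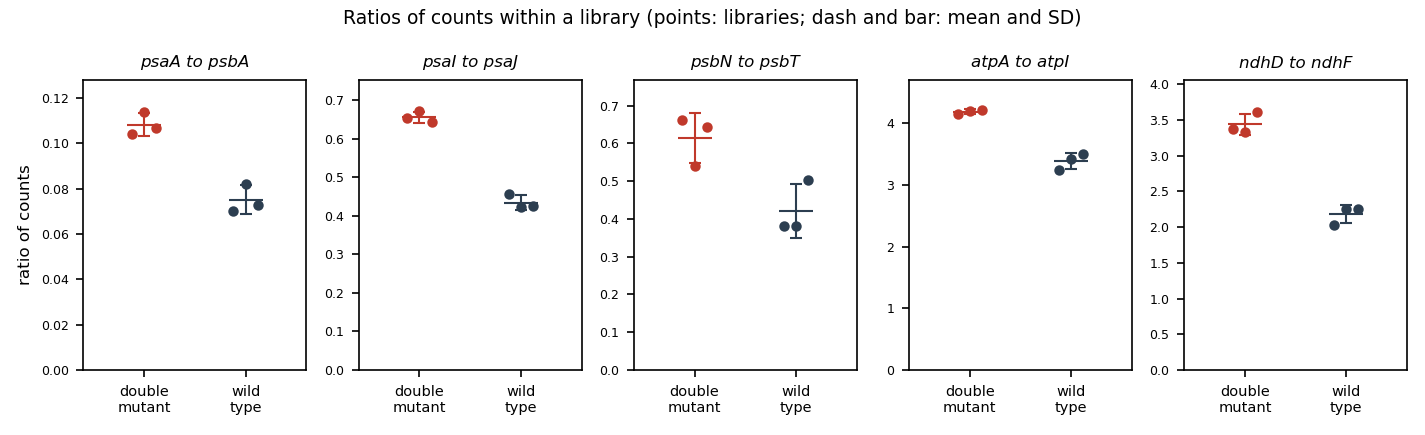
Ratio of counts of 2 plastid genes within each library, with points for libraries and dashes and bars for the mean and SD of 3. In all 5 pairs the double mutant libraries lie above the wild-type libraries, for example 3.44 ± 0.149 in the double mutant and 2.18 ± 0.126 in wild type for ndhD to ndhF.

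Transcripts for most nucleus-encoded partners of these subunits were lower as well. Over all tested genes 26.0% were lower and 26.3% higher, the shares to set beside this and the following nuclear lists. Of 20 nuclear NDH subunit and linker genes 16 were lower and 1 higher (edgeR adjusted p under 0.05), with a median log2 fold change of -0.78. The lower ones include PNSL3 of the lumen side (-0.97 ± 0.07), NDHN of the stromal arm (-0.81 ± 0.07), PNSB1 (-1.05 ± 0.09) and LHCA5, a light-harvesting protein that links NDH to photosystem I (-0.85 ± 0.06; all SE). NDHS, which forms the ferredoxin-binding site, had 50.2, 40.4 and 43.2 CPM in the double mutant, against 38.8, 34.5 and 35.9 CPM in wild type. NDHS was higher by 0.29 ± 0.09 (SE; adjusted p = 0.0204 by edgeR), but the call ended without double mutant replicate 1 (0.0682) or without wild type replicate 2 (0.0704) or 3 (0.0620; range over alternatives 0.00639 to 0.0704).

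All 13 nuclear photosystem I genes were lower, with a median of -0.67, among them PSAF, the plastocyanin-binding subunit (-1.13 ± 0.10), PSAK (-0.80 ± 0.09), PSAH-1 (-0.76 ± 0.08) and PSAP, also named CURT1B for its role in bending thylakoids (-0.87 ± 0.10; all SE). The plastid genes psaA and psaB, at -0.13 and -0.12, thus stood nearer to 0 than any of these 13, whose highest value was -0.23; the difference between them was not tested. Among 12 nuclear photosystem II genes, of median -0.60, 11 were lower and 1 higher. PSBQA of the oxygen-evolving complex (-1.34 ± 0.08), PSBTN (-1.09 ± 0.09) and PSBO2 (-0.79 ± 0.08; all SE) fell, and the weakly expressed PSBP-2 rose to 3.26, 2.70 and 2.87 CPM in the double mutant, against 1.05, 1.14 and 1.36 CPM in wild type. The 10 nuclear cytochrome b6f, ATP synthase and Rubisco genes had a median of -1.16, and 9 were lower. Genes of the small subunit of Rubisco were among them, with RBCS1B at -1.88 ± 0.09, RBCS2B at -1.80 ± 0.08 and RBCS3B at -2.04 ± 0.10 (SE), values that are uncertain singly because these genes share sequence. ATPD, the delta subunit of the ATP synthase, was at -0.98 ± 0.08 (SE). For rbcL, the plastid partner of the small subunit genes, the change was -0.70.

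Of 20 nuclear genes for RNA-binding and editing proteins known to act on the members' transcripts, 15 were lower and 1 higher. Over all tested genes the shares were 26.0% lower and 26.3% higher. The median of the 20 genes was -0.53. CREF7, an editing factor of ndhB, was at -1.11 ± 0.09, and OTP84, an editing factor of ndhB, ndhF and psbZ, at -0.77 ± 0.07 (SE). PGR3, which acts on the petL unit and on ndhA, was at -0.57 ± 0.06, and BFA2, needed for accumulation of the atpH-atpF transcript, at -0.55 ± 0.05 (SE). HCF107, which protects psbH transcripts, had 28.1, 29.4 and 32.2 CPM in the double mutant, against 21.3, 20.2 and 18.1 CPM in wild type. It was the one higher gene of the list, at 0.59 ± 0.08 (SE; adjusted p = 0.000316 by edgeR), while psbH itself fell by 0.44 on the CPM scale. On the plastid scale 8 of these 20 genes were higher and 2 lower, against 73.4% higher and 6.56% lower over all tested genes on that scale.

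Medians by strand, length and intron lay close together. The median log2 fold change was -0.51 for the 18 members on the plus strand and -0.53 for the 27 on the minus strand. It was -0.53 for the 18 members with under 300 exon bases and -0.50 for the 27 longer ones, and -0.43 for the 6 rows with an intron and -0.53 for the 39 without. Spearman's rho between log2 fold change and wild-type level was -0.01 over the 45 members, which share libraries and scaling. Every member was well covered, the lowest count in any library being 9551, so counting error was small beside the spread between libraries.

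Per kb of exon, levels spanned a wide range in both groups. psbA averaged 173188 CPM per kb in the double mutant and 272907 CPM per kb in wild type, and rbcL 61407 CPM per kb in the double mutant and 99826 CPM per kb in wild type. Next in both groups was psbJ, with 11314 CPM per kb in the double mutant and 16281 CPM per kb in wild type. psbJ has only 123 exon bases, and its 2003 CPM in wild type lay far below the 22318 CPM of psaB. Its rank, like that of psaJ with 135 exon bases, thus depends on the division by length. psaB ranked 5 in the double mutant and 10 in wild type, psaA 6 in the double mutant and 11 in wild type, and psaJ 11 in the double mutant and 5 in wild type. The lowest levels were those of ndhF, at 244 CPM per kb in the double mutant and 454 CPM per kb in wild type, and ndhH, at 334 CPM per kb in the double mutant and 442 CPM per kb in wild type. Neither the order of levels nor the ranks were tested.

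Many plastid promoters resemble those of bacteria, with a pair of short boxes upstream of the start of transcription. The 250 bases before each coding start were searched on the gene's strand for TTGACA and TATAAT, each with at most 1 mismatch and 15 to 20 bases between them. Such a pair was found for 6 of the 45 members, 13.3%, and for 9 of all 86 plastid protein-coding genes, 10.5%. The members were psbA, petN, petL, ndhF, ndhE and ndhH. The windows of psbA (Pt:1526-1563, minus strand) and ndhF (Pt:112832-112868, minus strand) are shown because they are the member windows with an unaltered TTGACA; capitals mark the boxes (RefSeq TAIR10.1).
psbA promoter: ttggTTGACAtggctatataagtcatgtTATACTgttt
ndhF promoter: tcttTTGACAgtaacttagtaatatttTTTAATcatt
A match describes letters in the window and not a promoter in use, and transcription starts were not measured here. Their genes moved by -0.66 for psbA and -0.89 for ndhF on the CPM scale, and on the plastid scale by -0.04 ± 0.09 for psbA (SE; adjusted p = 0.718 by edgeR) against the lower call of ndhF.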

How the data were processed

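The authors deposited 1 table of unnormalized read counts for each of the 6 libraries, made with featureCounts 2.0.0 per the file headers, on STAR alignments to TAIR10 per the submitters' processing notes. No other version is given in the sources used here. Per the file headers, reads were counted on the reverse strand over exons, a read with several alignments counted fully at each, and a read overlapping exons of several genes on 1 strand was not assigned. Groups came from the genotype labels.

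Fits used edgeR 4.0.16 in R 4.3.3 on the whole table (TMM scaling, filterByExpr, quasi-likelihood test, group as the only term, Benjamini-Hochberg over 21805 genes, threshold 0.05, two-sided). CPM is a count scaled to a TMM-adjusted total of 1000000. The SE is the size of the log2 fold change over the square root of F. The plastid scale refits the table with libraries scaled to plastid counts times TMM factors of the plastid genes. On simulated counts, the CPM fit recovered 42% of 50 nuclear genes given a log2 change of 0.5. The plastid-scale fit recovered 56% of such genes. Its simulation also raised every gene outside the plastid genome, so this is not recovery of a change of 0.5. No member was given a change, so neither share measures recovery of members. The plastid-scale fit called 6.11% of 131 unchanged plastid genes. Alternatives used DESeq2 1.42.0 and limma 3.58.1. Copies of member exons were sought with BLAST 2.17.0 (at least 95% identity over 50 bases). Sequences came from the RefSeq TAIR10.1 plastid genome, in which 42 members match the tables' coordinates at both ends.

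All members are named. From each other list the text names up to 4 called genes with the smallest adjusted p, and every called gene of a direction with 5 or fewer. The higher root markers, SCR, COBL9, WER, BGLU23 and the plastid neighbours were named after their values were seen. Members and lists were chosen with earlier results of these data known.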

Additional observations from a re-analysis of the deposited data

How the results depend on the processing

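Directions and calls of the members were recomputed with DESeq2 size factors, nuclear totals, ribosomal RNA genes left out, no filter on low counts, DESeq2's own test, limma-voom, a replicate block and each library left out. Of 585 such values on the CPM scale, 560 kept direction and side of the threshold, 24 lost the call (8 members) and 1, psbN without double mutant replicate 1, reversed to -0.064 (range over the libraries left out -0.064 to 0.23). In 32 members every alternative kept the lower call. The number lower was 32 to 40 over the libraries left out. On the plastid scale the number higher was 15 to 19 over the libraries left out, 10 with plain plastid totals and 10 with TMM on plastid protein-coding genes; the number lower was 1 to 2 over the libraries left out (2 without wild type replicate 2) and 7 with TMM on plastid protein-coding genes. Of 209 plastid-scale values, 177 kept the call and 32, in 8 members, lost it. These values cover only the 18 members called higher and the 1 called lower in the main fit. Calls gained by the 26 members without a call are outside this tally. The number of nuclear NDH genes called higher was 0 to 1 over the libraries left out. Without the filter on low counts 1 seed marker was higher, since the filter leaves 1 of 8 to test. The plastid share of counts differed by -11.1 to -8.59 points over the libraries left out and by -9.69 points without ribosomal RNA genes, alternatives chosen after seeing the data. AT4G15640 was higher by 0.24 (adjusted p = 0.0338; range over alternatives 0.0338 to 0.330) without wild type replicate 2. The cause of these shifts was not tested. Deviations of same-numbered libraries correlated at 0.19, 0.07 and -0.0016, and those of the other pairs at between -0.14 and 0.095. With 3 libraries per group these values cannot settle whether the numbers pair the libraries. With the replicate block 37 members were lower on the CPM scale and 17 higher on the plastid scale. In that fit psbA (edgeR adjusted p = 0.0555), petB (0.0774) and ndhD (0.0832) were no longer called on the CPM scale. Counting depth limits no member, the lowest count being 9551; 3 libraries per group limit the precision.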
